A study of Mus musculus with 4 samples.

Results

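HOX genes encode homeodomain transcription factors that record the position of a cell along the head-to-tail axis. The 39 protein-coding members of the 4 mouse clusters, Hoxa, Hoxb, Hoxc and Hoxd, were taken by symbol (Hoxa, Hoxb, Hoxc or Hoxd followed by the paralog number alone), on chromosomes 6, 11, 15 and 2 in this order, from a table of 48587 genes. Members with the same paralog number descend from 1 ancestral gene, and within a cluster the numbers follow the order along the chromosome. In the embryo, low-numbered genes are switched on first and reach furthest toward the head, and high-numbered genes are added later and toward the tail, a rule known as colinearity. Adult mesenchymal cells, including smooth muscle of the aorta, keep much of the pattern of the place they came from, so that the HOX genes a culture expresses are read as its positional identity.

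The libraries were made from polyadenylated RNA of primary vascular smooth muscle cells (VSMCs) in culture, isolated from the descending aorta of C57BL/6J mice aged 8 to 12 weeks. All cultures were transduced with lentivirus. The vector expressed either shCTR, a nontargeting hairpin directed at a plant microRNA, or shMettl14, a hairpin against Mettl14, a subunit of the enzyme that writes m6A on mRNA. Each group has 2 libraries, which carry the letters A and B, so that each letter has 1 library of each hairpin. The sources used here do not say whether a letter is a separate animal, pool of animals or culture, and p-values measure only the spread between these libraries.

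Mettl14 had 2050 counts with shCTR and 546 with shMettl14 in letter A, and 2154 with shCTR and 568 with shMettl14 in letter B, so that the targeted gene was lower in each library labelled shMettl14 (log2 difference -2.08, adjusted p = 1.0 by edgeR without a term for the letter and 3.05e-07 by DESeq2). Totals ranged from 114343653 to 124815868 counts per library, and the 3 counts that a count of 0 still allows correspond to 0.0231 to 0.0278 CPM (counts scaled to the size of the library, with TMM factors), for counting error only. The 7 VSMC markers summed to 4440 to 6796 CPM and the 8 endothelial markers to 1811 to 4067 CPM. VSMC markers such as Acta2, from 257838 to 402838 counts, were thus present in every library, and so were endothelial markers such as Cdh5, from 57679 to 88323 counts.

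HOX mRNA was abundant in all 4 libraries, and the set of genes that carried it depended on the letter. The HOX genes summed to 280 and 260 CPM in the shCTR and shMettl14 libraries of letter A, and to 588 and 608 CPM in those of letter B. Of the 39 genes, 18 and 19 reached 1 CPM in the A libraries and 24 in each B library. The genes past 1 CPM in both B libraries and in neither A library were Hoxc4, Hoxc6, Hoxc8, Hoxd3 and Hoxd9, and Hoxd4 reached it in both B libraries and in shMettl14 A alone. A single member, Hoxc11, had 0 counts in every library.

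**Figure D1:**
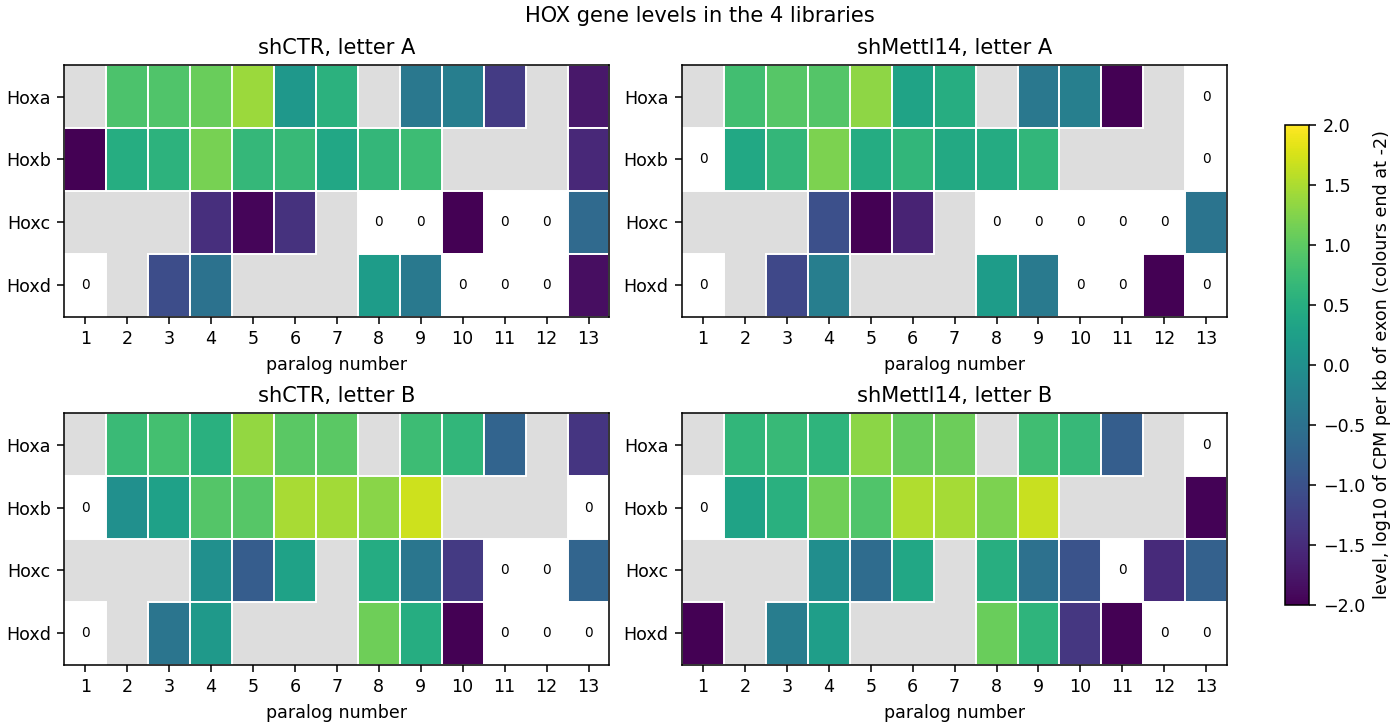
Level of each HOX gene by cluster (rows) and paralog number (columns) in the 4 libraries, as log10 of CPM per kb of exon on a colour scale, with 0 written where no read was counted and grey where the cluster has no such gene or none is shown. The 2 libraries of a letter look alike, and in letter B the bright cells move toward paralog numbers 6 to 9 and the Hoxc row fills between 4 and 9.

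Levels per kb were taken over all annotated exons of a gene merged, so that genes can be compared with each other. On this scale the leading members of letter A had lower numbers than those of letter B. Each SD here is over the shCTR and the shMettl14 library of a letter, so that it includes any difference between the hairpins. Hoxa5, a regulator of lung and cervicothoracic patterning, led letter A at 22.6 ± 2.79 CPM per kb (SD, n = 2). Hoxb4, known for expanding blood stem cells, followed at 15.7 ± 0.488 CPM per kb, and Hoxa4 at 10.2 ± 2.56 CPM per kb. The libraries of Hoxa5 did not overlap with those of Hoxb4, nor those of Hoxb4 with those of Hoxa4. Hoxa4 in shMettl14 A, at 8.38 CPM per kb, lay under Hoxa3 in the same library, at 8.72 CPM per kb. The place of Hoxa3 depends on the length used, since its merged exons hold 6014 bases and its longest transcript 2591. In CPM without length, Hoxa3 had the highest mean in letter A, at 50.1 ± 3.25 against 42.4 ± 5.23 for Hoxa5. In letter B the order began with Hoxb9 at 47.8 ± 1.84, Hoxb6 at 31.9 ± 2.56 and Hoxb7 at 28.4 ± 0.0403 CPM per kb. Hoxa5 came next in letter B at 21.3 ± 1.33 CPM per kb, with libraries above those of Hoxb8, from 16.5 to 19.3 CPM per kb. Hoxd8 stood at 12.8 ± 0.711 CPM per kb, Hoxa7 at 11.0 ± 2.10, Hoxb4 at 10.9 ± 3.47 and Hoxa6 at 10.4 ± 1.08. The libraries of Hoxa7, Hoxb4 and Hoxa6 overlapped. In shMettl14 B, Hoxd8 at 12.3 CPM per kb lay under Hoxb4 at 13.3 and Hoxa7 at 12.5.

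The mean paralog number, weighted by the level per kb, was 4.64 and 4.55 in the shCTR and shMettl14 libraries of letter A and 6.72 and 6.61 in those of letter B. Paralog numbers 1 to 3, called anterior here, held 25.4% and 28.1% of the HOX level per kb in letter A and 7.58% and 7.95% in letter B. In CPM without length they held 36.0% and 40.3% in letter A and 11.6% and 11.9% in letter B. Numbers 9 to 13, called posterior here, held 6.42% and 6.11% in letter A and 26.0% and 24.8% in letter B. The middle numbers, 4 to 8, held between 65.7% and 68.2% in all 4 libraries, but their own mean number was 5.11 and 5.09 in letter A and 6.31 and 6.22 in letter B. These shares have 2 libraries a letter, for which the smallest two-sided p of an exact permutation test is 0.333, and they are given without a test. Fewer cells of a type and less RNA per cell cannot be told apart in such bulk libraries.

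**Figure D2:**
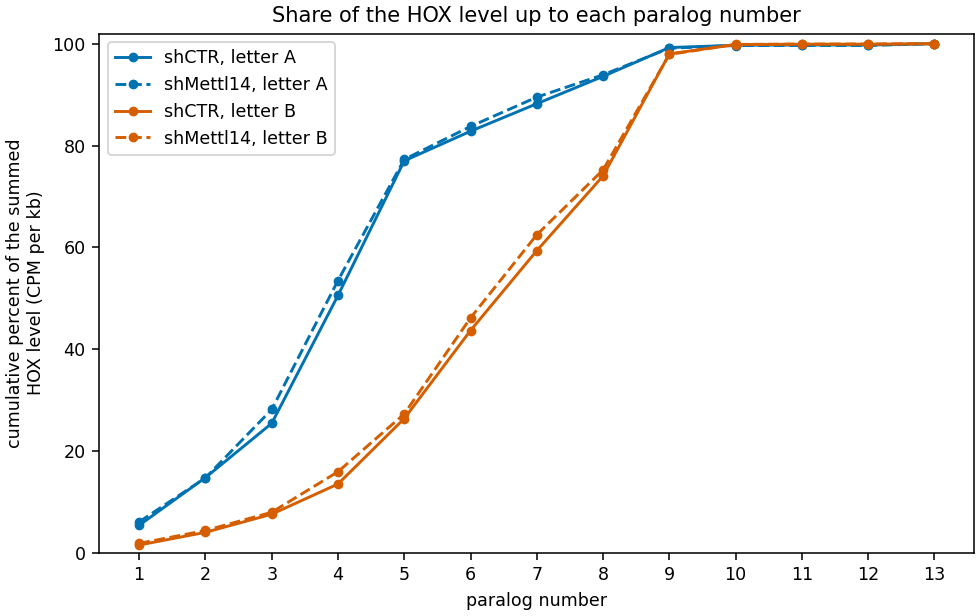
Cumulative percent of the summed HOX level (CPM per kb of exon) up to each paralog number, with letter A in blue, letter B in orange, shCTR as solid lines and shMettl14 as dashed lines. At number 5 the A libraries have reached 77.0% and 77.3% and the B libraries 26.4% and 27.3%.

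The clusters took part to different degrees. Hoxa genes made up 57.7% and 56.6% of the HOX level per kb in letter A, and 29% in each library of letter B. The share of Hoxb was 39.8% and 40.4% in letter A against 60.8% and 60.6% in letter B. Hoxc genes were close to absent in letter A, with 0.290% and 0.473%, and held 2.77% and 2.92% in letter B. Hoxd genes held 2.16% and 2.57% in letter A and 7.48% and 7.41% in letter B. Most of the gain of letter B was thus in Hoxb, whose sum was 44.0 and 39.9 CPM per kb in letter A and 147 and 152 CPM per kb in letter B, while the Hoxa sum was 63.8 and 56.0 CPM per kb in letter A and 70.1 and 72.8 in letter B.

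The letters were then compared gene by gene, with the quasi-likelihood test of edgeR on all genes and the hairpin as a term. Of the 39 HOX genes, 29 passed the filter on low counts. The other 10 (Hoxa13, Hoxb1, Hoxb13, Hoxc11, Hoxc12, Hoxd1, Hoxd10, Hoxd11, Hoxd12 and Hoxd13) had at most 11 counts in any library. At an adjusted p under 0.05, 18 HOX genes were higher in letter B, where 6.69% of the 18916 genes tested were called higher, and 3 were lower, where 8.95% were called lower. Among the genes tested are 4 (Hoxc5, Hoxc8, Hoxc9 and Hoxc10) with under 10 counts in both A libraries, which passed the filter through letter B. Hoxa11, Hoxc4 and Hoxc6, with few counts in letter A, also passed it only with the counts of letter B. With at least 10 counts required in every library, which 23 HOX genes met, 14 were called higher and 4 lower, against 8.7% and 11.5% of the genes tested. Without any filter, both B libraries were above both A libraries for 21 of the 39 genes, against 12.2% of the whole table, and below them for 8, against 14.5%. The whole table also holds genes with no count in any library, which cannot separate. Among the genes tested, both B libraries were above for 20 of 29 HOX genes, against 27.2%, and below for 8 of 29, against 28.7%.

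By paralog number, of the 8 anterior genes, 6 were tested, of which 1 was called higher and 2 lower in letter B. All 15 middle genes were tested, with 12 called higher and 1 lower. Of the 16 posterior genes 8 were tested, and 5 were called higher and 0 lower. By cluster, the calls were 4 higher and 2 lower in Hoxa, 5 higher and 1 lower in Hoxb, 5 higher in Hoxc and 4 higher in Hoxd, so that in Hoxc and Hoxd the calls were higher at low numbers too. Over all genes tested, 6.69% were called higher and 8.95% lower in letter B. These tallies include Hoxc4, Hoxc5, Hoxc6, Hoxc8 and Hoxc9, which passed the filter only through letter B, and are a description. All the Hoxc calls are of such genes.

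**Figure D3:**
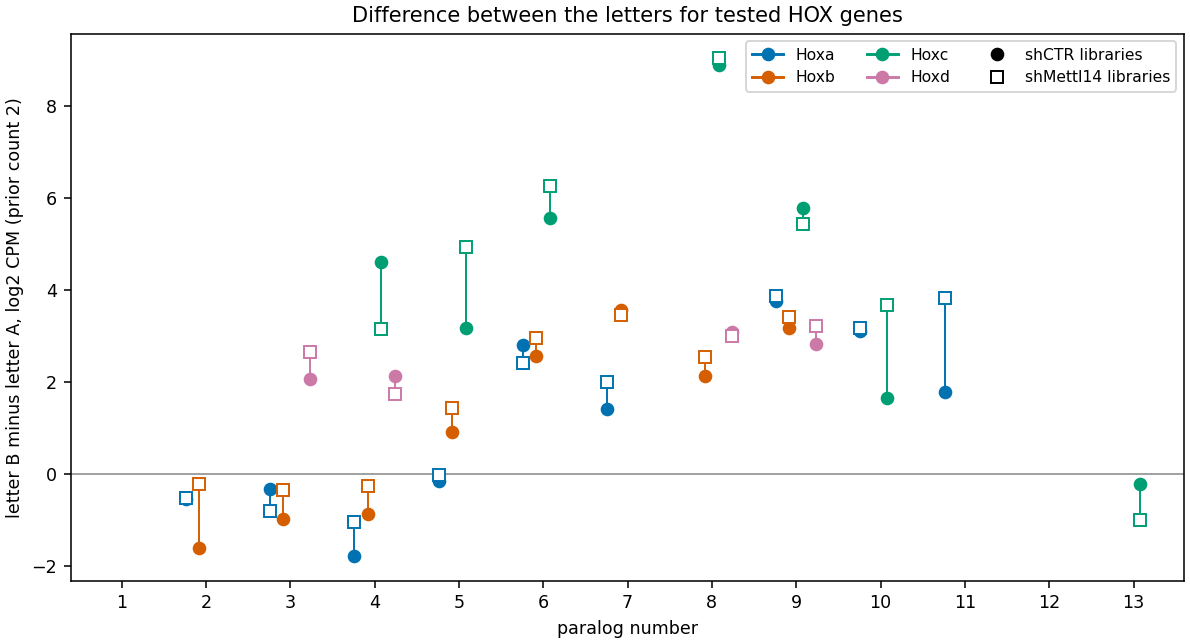
Letter B minus letter A in log2 CPM (prior count 2) for the tested HOX genes named in the text, against paralog number, coloured by cluster, with circles for the 2 shCTR libraries and squares for the 2 shMettl14 libraries. Hoxa and Hoxb genes lie under or at 0 up to Hoxa5 and Hoxb4 and above it from Hoxa6 and Hoxb5 on, and the Hoxc8 and Hoxc9 points rest on 0 counts in letter A, so that their height depends on the prior count.

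The anterior members encode factors of the hindbrain, neck and pharyngeal arches. Hoxa2 had 1487 and 1281 counts in the shCTR and shMettl14 libraries of letter A and 968 and 978 in those of letter B. Hoxb2 had 1176 and 1023 counts in letter A against 366 and 963 in letter B. In both the A libraries were above the B libraries in CPM, and neither passed the test, with log2 differences of -0.53 and -0.91 and adjusted p-values by edgeR of 0.0788 and 0.0733. Hoxa3, needed for the thymus, the parathyroids and the carotid artery, had 5433 and 6226 counts in letter A and 4126 and 3870 in letter B. Hoxb3 had 1804 and 2268 counts in letter A and 867 and 1947 in letter B. Both were called lower in letter B, Hoxa3 by a log2 difference of -0.57 ± 0.17 (SE; adjusted p = 0.0488, edgeR) and Hoxb3 by -0.67 ± 0.20 (adjusted p = 0.0462, edgeR). These calls lie next to the threshold, and both are lost with upper-quartile normalization, at adjusted p-values of 0.0706 for Hoxa3 and 0.0703 for Hoxb3, and without the hairpin term. Of the exon bases of Hoxb3, 52.9% are shared with Hoxb3os on the other strand, and 27.3% of those of Hoxb2. Other members overlap genes of the other strand too, among them Hoxa11 (35.0%), Hoxa3 (25.4%), Hoxa7 (20.4%) and Hoxa4 (16.0%). The library kit keeps strand, but whether the counting used it is not given in the sources used here, so that the share of such reads is uncertain.

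Paralog group 4 divided by cluster. Hoxa4 had 2174 and 1587 counts in letter A and 599 and 843 in letter B, and it was lower in letter B by a log2 difference of -1.41 ± 0.22 (SE; adjusted p = 0.00176, edgeR). Hoxb4 had 4486 and 4900 counts in letter A and 2340 and 4455 in letter B, a log2 difference of -0.57 ± 0.18 that did not pass (adjusted p = 0.0604, edgeR). Hoxc4 and Hoxd4 went the other way. Hoxc4 had 10 and 29 counts in letter A and 274 and 301 in letter B, and Hoxd4 had 107 and 173 against 454 and 637. Their log2 differences were 3.94 ± 0.48 and 1.95 ± 0.28 (adjusted p = 0.000356 and 0.00107, edgeR). Hoxc4 passed the filter on low counts only through letter B, and its p-value is given as a description. Hoxd3, an anterior gene by number, was also higher in letter B, with 40 and 37 counts in letter A and 165 and 265 in letter B (log2 difference 2.41 ± 0.41, adjusted p = 0.00291, edgeR). Hoxd3 and Hoxd4 share 62.3% and 52.3% of their exon bases with genes on the same strand (Gm28230 and each other), and cannot be separated fully in these counts.

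Within Hoxa and Hoxb the sign changed between neighbours. Hoxa5 had 5243 and 4602 counts in letter A and 4512 and 4973 in letter B, and the letters overlapped (log2 difference -0.08 ± 0.16, adjusted p = 0.782, edgeR). Hoxa6, the next gene of the cluster, had 134 and 216 counts in letter A and 909 and 1268 in letter B, and rose by a log2 difference of 2.62 ± 0.24 (adjusted p = 5.68e-05, edgeR). In Hoxb the step lay between Hoxb4, with both A libraries above both B libraries, and Hoxb5. Hoxb5 had 1459 and 955 counts in letter A and 2609 and 2843 in letter B (log2 difference 1.18 ± 0.19, adjusted p = 0.00218, edgeR). The differences at Hoxa6 and Hoxb5 were the same in direction with either hairpin, at 2.82 and 2.41 for Hoxa6 and 0.91 and 1.44 for Hoxb5 in the shCTR and shMettl14 libraries. Measured from the low-numbered end of each cluster, each tested Hoxa and Hoxb gene beyond that step had both B libraries above both A libraries, as the plot along the clusters shows.

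**Figure D4:**
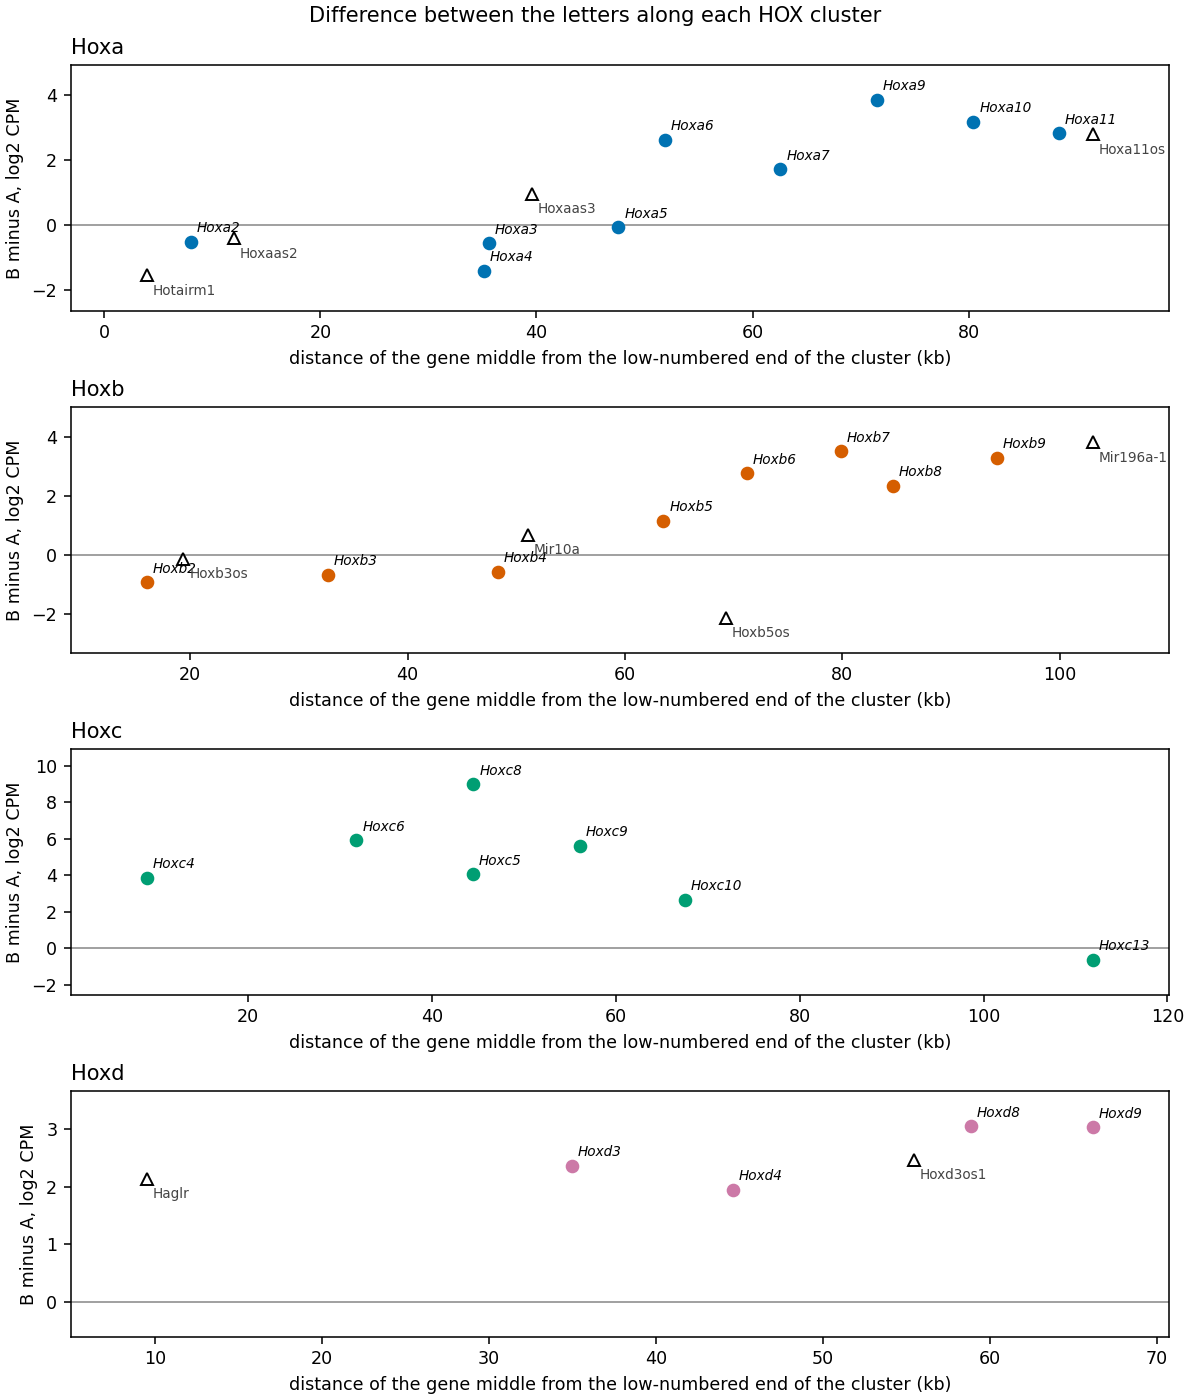
Letter B minus letter A in log2 CPM (mean of the 2 hairpins, prior count 2) for tested genes of each cluster, against the distance of the middle of the gene from the low-numbered end of the cluster in kb. Filled circles are HOX genes and open triangles noncoding genes. In Hoxa and Hoxb the HOX genes pass from under or near 0 to above it on the way along the cluster, Hoxb5os lies at the opposite side of 0 from its neighbour Hoxb5, and in Hoxc only Hoxc13 lies under 0.

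Trunk genes of the middle and posterior groups made up the bulk of the difference. Hoxb9 (chr11:96271457-96276595, plus strand), a gene of thoracic identity, had 1590 and 1327 counts in the shCTR and shMettl14 libraries of letter A and 13652 and 15571 in those of letter B (log2 difference 3.30 ± 0.17, adjusted p = 1.42e-06, edgeR). Its neighbours followed. Hoxb6 rose from 1124 and 1003 counts in letter A to 6389 and 8618 in letter B, Hoxb7 from 419 and 469 to 4732 and 5710, and Hoxb8 from 1311 and 876 to 5488 and 5645. Their log2 differences were 2.78 ± 0.18, 3.52 ± 0.18 and 2.35 ± 0.18, with a largest adjusted p of 1.52e-05 (edgeR). On the Hoxa cluster, Hoxa9, best known from leukaemia, had 255 and 268 counts in letter A and 3328 and 4357 in letter B (log2 difference 3.83 ± 0.19, adjusted p = 1.01e-06, edgeR). Hoxa7 had 1168 and 1071 counts in letter A and 2959 and 4674 in letter B (1.70 ± 0.19), and Hoxa10, which also acts in the uterus and the lumbar region, had 184 and 202 against 1534 and 2030 (3.16 ± 0.22). Hoxa11 was sparse, with 13 and 1 counts in letter A and 47 and 45 in letter B. It passed the filter on low counts only through letter B, and it was not called (log2 difference 3.07 ± 1.02, adjusted p = 0.0657, edgeR). Numbers 1 to 10 together held at least 99.6% of the HOX level per kb in each library, so that the genes of numbers 11 to 13 added little in either letter.

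The largest folds were those of Hoxc genes. Among them, Hoxc4, Hoxc5, Hoxc6, Hoxc8, Hoxc9 and Hoxc10 passed the filter on low counts only through letter B. Their p-values are given as a description. Hoxc8 (chr15:102990607-102994111, plus strand), which patterns the thoracic skeleton and its motor neurons, had 0 counts in both A libraries and 883 and 1167 in the B libraries. With the limit of 3 counts per library in letter A, a mean of 0.0258 CPM, Hoxc8 was at least 332-fold higher in letter B (adjusted p = 1.42e-06, edgeR). Hoxc9 had 0 counts in both A libraries and 99 and 94 in the B libraries, at least 31.7-fold higher (adjusted p = 0.000593, edgeR). Hoxc6 had 10 and 7 counts in letter A and 534 and 754 in letter B, a log2 difference of 6.17 ± 0.39 (adjusted p = 4.01e-06, edgeR). Hoxc5 went from 4 and 1 counts to 49 and 99 (4.73 ± 0.92, adjusted p = 0.00637, edgeR). Hoxc10 had 2 and 0 counts in letter A and 10 and 26 in letter B, a ratio of 17.6 with a 95% counting interval from 4.52 to 151, and did not pass (adjusted p = 0.152, edgeR). Hoxc13, a gene of hair and nail at the far end of the cluster, stood apart with 64 and 101 counts in letter A and 52 and 54 in letter B (log2 difference -0.63 ± 0.50, adjusted p = 0.442, edgeR). Between Hoxc10 and Hoxc13, Hoxc11 had 0 counts and Hoxc12 at most 4 in any library.

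Hoxd genes were expressed in a short stretch. Hoxd8 had 485 and 502 counts in letter A and 3946 and 4393 in letter B (log2 difference 3.05 ± 0.18, adjusted p = 2.63e-06, edgeR). Hoxd9 had 100 and 108 counts in letter A and 684 and 1129 in letter B (3.05 ± 0.26, adjusted p = 3.25e-05, edgeR). Beyond Hoxd9, the limb and genital genes Hoxd10 to Hoxd13 were near background. Hoxd10 had 0 counts in both A libraries and 2 and 10 in the B libraries, and Hoxd11, Hoxd12 and Hoxd13 had at most 4 in any library.

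As a description, the correlation of log2 CPM over the 39 HOX genes was 0.984 between the 2 libraries of letter A and 0.987 between those of letter B, and 0.841 to 0.858 across letters. Over all tested genes the same 4 libraries gave 0.985 and 0.977 within letters and 0.953 to 0.969 across letters. The median absolute log2 difference across letters was 2.14 to 2.69 for the tested HOX genes and 0.339 to 0.511 for all tested genes. Other markers moved with the letters too. Of the endothelial markers, 3 of 8 (Emcn, Tek and Erg) were higher in letter B, with a summed level of 1919 and 1811 CPM in letter A and 4067 and 2522 CPM in letter B. Of the VSMC markers 1 of 7 was lower, Myh11 (log2 difference -1.69, adjusted p = 6.17e-05, edgeR). Clec3b and Pdgfra, 2 of 7 adventitial fibroblast markers, were lower in letter B, as were Csf1r, 1 of 3 leukocyte markers tested, and Ttn, 1 of 5 striated muscle markers tested, and Upk3b, 1 of 2 mesothelial markers tested, was higher. Of all tested genes, 6.69% were called higher and 8.95% lower. The part of other cells in the HOX difference was not tested.

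RefSeq promoter windows of GRCm38.p6, from 250 bases before to 50 after the start, were at hand for 22 of the 39 genes (24 windows). Their median GC content was 57.7%, against 52.7% for all 32851 windows, and their median ratio of observed to expected CpG was 0.626 against 0.384. The letters TTTATG, bound by caudal-type (Cdx) factors that activate trunk HOX genes in the embryo, were in 5 of 24 HOX windows (20.8%) on either strand, those of Hoxa7, Hoxb8, Hoxd3, Hoxd4 and Hoxd11, and in 11.9% of all windows. Of the genes called higher in letter B, Hoxa7, Hoxb8 and Hoxd4 hold the letters at 2 places each and Hoxd3 at 1, and the windows of Hoxa6, Hoxa9, Hoxa10, Hoxc4, Hoxd8 and Hoxd9 hold none. The windows of Hoxa7 and Hoxb8, with the letters in capitals, and of Hoxb4, which holds none, are shown as examples. Of the other motifs searched on both strands, the retinoic acid receptor motif AGGTCA was in 29.2% of HOX windows and 16.3% of all, the PBX-HOX motif TGATNNAT in 16.7% and 8.85%, the motif TATAAA in 16.7% and 13.62%, and the YY1 motif GCCATNT in 4.17% and 15.1%.
Hoxa7 promoter, chr6:52218524-52218823, minus strand: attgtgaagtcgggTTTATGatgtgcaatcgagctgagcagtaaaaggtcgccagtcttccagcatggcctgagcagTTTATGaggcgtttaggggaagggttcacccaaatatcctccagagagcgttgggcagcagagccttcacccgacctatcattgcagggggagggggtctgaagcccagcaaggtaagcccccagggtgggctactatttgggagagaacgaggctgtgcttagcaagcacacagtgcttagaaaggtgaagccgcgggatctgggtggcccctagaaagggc
Hoxb8 promoter, chr11:96281655-96281954, plus strand: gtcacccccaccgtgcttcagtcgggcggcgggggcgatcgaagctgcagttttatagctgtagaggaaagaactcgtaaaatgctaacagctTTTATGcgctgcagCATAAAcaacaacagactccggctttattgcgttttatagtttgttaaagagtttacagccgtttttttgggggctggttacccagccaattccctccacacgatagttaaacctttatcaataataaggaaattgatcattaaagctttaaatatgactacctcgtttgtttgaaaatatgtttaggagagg
Hoxb4 promoter, chr11:96318017-96318316, plus strand: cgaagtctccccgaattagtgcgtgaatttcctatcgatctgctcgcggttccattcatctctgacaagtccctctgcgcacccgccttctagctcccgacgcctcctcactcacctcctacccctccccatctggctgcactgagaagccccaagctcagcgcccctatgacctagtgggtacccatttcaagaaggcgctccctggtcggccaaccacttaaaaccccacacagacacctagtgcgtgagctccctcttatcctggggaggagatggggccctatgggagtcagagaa
The match is a description of these letters. Of the Cdx genes themselves, Cdx1 had 11 counts in shCTR A and 0 elsewhere, Cdx2 had 5 and 0, and Cdx4 had 0 in every library.

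Noncoding genes within the clusters also differed. Of 11 tested, 5 were higher and 2 lower in letter B, where 6.69% and 8.95% of all tested genes were. Mir196a-1, the row of the hairpin that gives miR-196a, between Hoxb9 and Hoxb13, had 23 and 44 counts in the shCTR and shMettl14 libraries of letter A and 393 and 608 in those of letter B (log2 difference 3.89 ± 0.34, adjusted p = 3.66e-05, edgeR). These are reads of polyadenylated RNA over the hairpin and not the mature miRNA, which such libraries do not measure. Hotairm1, at the low-numbered end of Hoxa, had 1417 and 1597 counts in letter A and 422 and 644 in letter B (-1.56 ± 0.20, adjusted p = 0.000522, edgeR). Hoxb5os, antisense to Hoxb5, had 1245 and 1054 counts in letter A and 133 and 545 in letter B (-2.08 ± 0.47, adjusted p = 0.025, edgeR), opposite to Hoxb5. Haglr, Hoxd3os1, Hoxaas3 and Hoxa11os were higher in letter B by log2 differences of 2.22, 2.46, 0.96 and 3.23. Mir10a, next to Hoxb4, was not called (log2 difference 0.71 ± 0.71, adjusted p = 0.561, edgeR).

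HOX clusters carry miRNAs that target HOX mRNAs. The mature sequences from RefSeq are given to show the shared seeds, bases 2 to 8, in capitals, with the coordinates of GRCm38.p6. miR-196a and miR-196b share a seed, and so do miR-10a and miR-10b.
mmu-miR-196a-5p, chr11:96265187-96265208, plus strand: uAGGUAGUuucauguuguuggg
mmu-miR-196b-5p, chr6:52230129-52230150, minus strand: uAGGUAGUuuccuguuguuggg
mmu-miR-10a-5p, chr11:96317186-96317208, plus strand: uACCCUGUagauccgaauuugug
mmu-miR-10b-5p, chr2:74726074-74726096, plus strand: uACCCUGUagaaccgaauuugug
The longest protein-coding transcript of each gene in GENCODE M21 was searched. The letters ACTACCT, complementary to the miR-196 seed, were in its annotated 3′ UTR for 8 of the 39 HOX genes (20.5%). They were there for 5.82% of all 21877 genes with such a transcript, whether or not a 3′ UTR is annotated. The 8 HOX genes are Hoxa4, Hoxa5, Hoxa7, Hoxa9, Hoxb1, Hoxb6, Hoxb7 and Hoxc8. The match to the miR-10 seed, ACAGGGT, was in 4 of 39 (10.3%), among them Hoxa3, Hoxb3 and Hoxd1, against 11.8%. Of the miR-196 group, Hoxa7, Hoxa9, Hoxb6, Hoxb7 and Hoxc8 were called higher in letter B, where Mir196a-1 was higher too, Hoxa4 was called lower and Hoxa5 was not called. Sites of the member with the largest difference and of the member with 4 matches are shown with the seed match in capitals. The base number given is that of the first capital, and the bases printed before it lie upstream.
Hoxc8 3′ UTR site, from base 1037 of a transcript of 1868 bases: cactcacaactctaACTACCTg
Hoxa7 3′ UTR site, from base 1290 of a transcript of 2009 bases: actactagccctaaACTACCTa
A match was not tested as a site of regulation, and mature miRNA was not measured.

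The hairpin comparison asked whether lowering Mettl14 changed the HOX pattern. It did not move any HOX gene past the test. With edgeR, 0 of the 29 tested genes had an adjusted p under 0.05, where 0% of all tested genes were called in either direction, and 0 had an unadjusted p under 0.05, where 0.656% of all tested genes did so as higher and 1.01% as lower. DESeq2 called 0 HOX genes as well, where it called 0% of the genes it tested as higher and 0.0172% as lower. The lowest unadjusted p of a HOX gene was 0.254, for Hoxb3. The fit sets the groups against the spread within each hairpin, which for these genes contains the difference between the letters, so that standard errors of the log2 difference ran from 0.19 for Hoxa5 to 2.91 for Hoxc8. At these errors a missing call does not show that the levels were alike. The summed VSMC markers, 6796 CPM with shCTR and 4440 with shMettl14 in letter A and 5764 and 4803 in letter B, were lower with shMettl14 in both letters, and their part in the hairpin values was not tested.

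Within a letter the 2 hairpins can be set side by side, as values of 2 libraries with no test. For the 20 HOX genes with at least 100 counts in every library, the log2 ratio of shMettl14 to shCTR ran from -0.67 (Hoxb5) to 0.62 (Hoxd4) in letter A and from -0.36 (Hoxa3) to 1.12 (Hoxb2) in letter B. Of the 29 tested genes, 9 were higher with shMettl14 in both letters, where 30% of all tested genes were, 7 were lower in both, where 27.6% were, and 11 had opposite signs. Among the 20 genes with at least 100 counts in every library, the largest ratios in letter B were those of 3 neighbours, Hoxb2, Hoxb3 and Hoxb4, at 1.12, 0.90 and 0.66. In letter A the same genes had ratios of -0.26, 0.27 and 0.06, and the difference between the letters was not tested, since each letter has 1 library of a hairpin. Hoxb5 and Hoxb8 had ratios of -0.67 and -0.65 in letter A and -0.14 and -0.23 in letter B. Hoxa2, Hoxa5, Hoxb9 and Hoxd8 also had negative ratios in both letters, and Hoxa6, Hoxd4, Hoxb3 and Hoxd9 positive ratios in both.

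**Figure D5:**
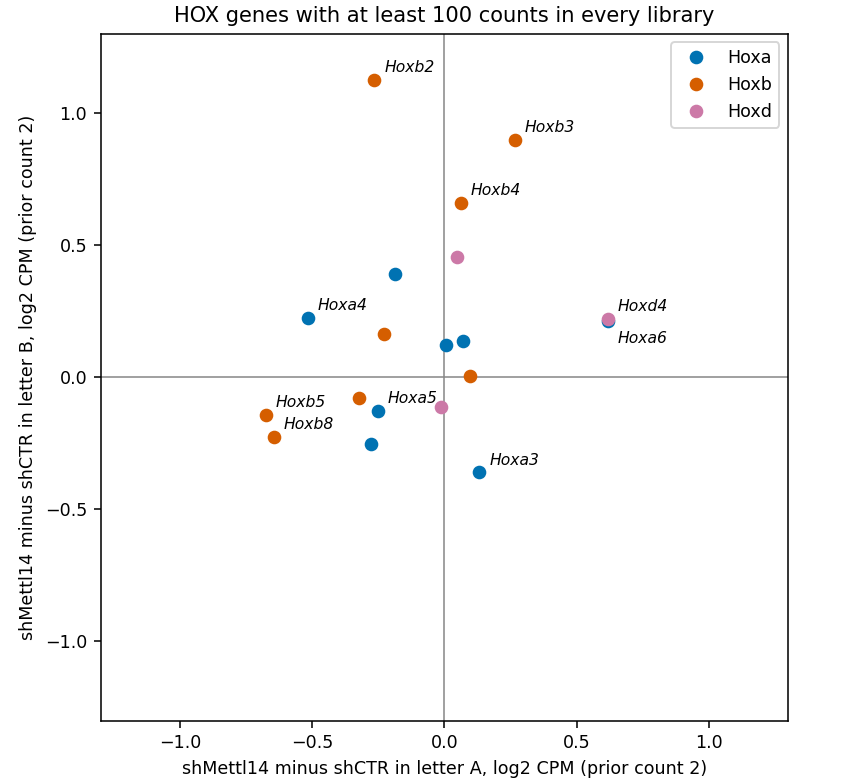
Log2 ratio of shMettl14 to shCTR (log2 CPM, prior count 2) in letter B against that in letter A for the HOX genes named in the text with at least 100 counts in every library, coloured by cluster. Hoxb2, Hoxb3 and Hoxb4 lie highest on the letter B axis, at 1.12, 0.90 and 0.66, with -0.26, 0.27 and 0.06 in letter A.

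The mRNAs of known HOX cofactors and regulators were compared between the letters in the same fit. TALE homeodomain cofactors, which bind DNA beside HOX proteins, included 9 tested genes, of which 1 was higher and 2 lower in letter B. Meis2 was higher, with 4090 and 3652 counts in the shCTR and shMettl14 libraries of letter A and 7619 and 6442 in those of letter B (log2 difference 0.83 ± 0.16, adjusted p = 0.00642, edgeR). Meis1 and Meis3 were lower, by -0.58 ± 0.17 and -0.80 ± 0.16 (adjusted p = 0.0413 and 0.00741, edgeR). Polycomb proteins, which keep HOX genes silent outside their domains, had 2 of 27 higher (Bmi1 and Mtf2) and 3 lower (Phf1, Ring1 and Cbx7). Of the 11 trithorax and H3K27 demethylase genes, which keep HOX genes active, 0 were called in the letter comparison. Retinoic acid sets HOX boundaries in the embryo. Of 16 tested genes of its pathway, Dhrs3, Aldh1a1 and Aldh1a2 were higher and Cyp26b1, Rxrb and Aldh1a3 lower in letter B. Cyp26b1, the enzyme that degrades retinoic acid, had 28591 and 38596 counts in letter A and 8800 and 14380 in letter B (log2 difference -1.59 ± 0.16, adjusted p = 9.12e-05, edgeR). For comparison, 6.69% of all tested genes were called higher and 8.95% lower in letter B.

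Other transcription factors of position also differed between the letters. Of 29 tested genes of the arches, outflow tract, limb and head, 5 were higher and 14 lower in letter B, where 6.69% and 8.95% of all tested genes were. Foxf1, a factor of lung and gut mesenchyme, had 3708 and 3900 counts in letter A and 101 and 142 in letter B (log2 difference -5.01 ± 0.21, adjusted p = 4.19e-07, edgeR). Gata4, a heart factor, had 297 and 248 counts in letter A and 2 and 16 in letter B (-5.08 ± 0.61, adjusted p = 0.000345, edgeR). Osr2, of limb and palate, had 35 and 53 counts in letter A and 0 and 2 in letter B. Gata4 and Osr2 passed the filter on low counts only through letter A, and the p-value of Gata4 is given as a description. Six2 and Pax3 went in opposite directions, at -3.22 ± 0.25 and 3.40 ± 0.52 (adjusted p = 1.67e-05 and 0.00149, edgeR).

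In none of these lists of regulators and positional factors did a gene reach an adjusted p under 0.05 between the hairpins. The edgeR fit without the letter called 0% of all tested genes in either direction, so that Mettl14 was not called either. In the same fit, the only unadjusted p under 0.05 in these lists was that of Crabp2, a retinoic acid carrier, at 0.0209 (edgeR). Of all tested genes, 0.656% had such a p as higher and 1.01% as lower. Crabp2 had 471 and 204 counts in the shCTR and shMettl14 libraries of letter A and 460 and 273 in those of letter B (log2 difference -1.14, adjusted p = 1.0 by edgeR).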

How the data were processed

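Poly-A RNA of the 4 libraries was made into stranded paired-end libraries. The authors mapped the reads with STAR to GRCm38.p6 (mm10, Ensembl annotation) and assigned them to genes with featureCounts. The deposited table holds the raw counts of the 4 libraries. Tool versions, the strand setting and the treatment of multiply mapped reads are not given in the sources used here. Gene coordinates, exons and UTRs were taken from GENCODE M21 on GRCm38, and promoters and miRNAs from RefSeq.

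Differences were tested with edgeR 4.0.16 in R 4.3.3 (TMM, filterByExpr, robust quasi-likelihood fit, Benjamini-Hochberg adjustment over 18916 genes, threshold 0.05). The hairpin fit had no other term, and the letter fit had the hairpin as a term. A standard error is the log2 difference divided by the square root of F. Levels are CPM scaled by TMM, divided by kb of all annotated exons merged where genes are compared. Within-letter ratios used a prior count of 2. Intervals and limits cover counting error only. The edgeR and DESeq2 fits were tested on simulated data. Alternatives were DESeq2 1.42.0, RLE and upper-quartile factors, other filters, a replicate block, the letter fit without its hairpin term and each library left out. The HOX genes and the lists of related genes were chosen with earlier results of these data known. Some genes are not reported here. The text names Mettl14, the other HOX genes, and of each list its 2 most abundant genes per kb and at most 5 that passed, by size of change. Other genes were named after their values were seen.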

Additional observations from a re-analysis of the deposited data

How the results depend on the processing

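The number of HOX genes called higher in letter B was 18, and was 17 to 19 under RLE, upper-quartile factors, DESeq2, no filter or no hairpin term, and 14 with at least 10 counts in every library. The number called lower was 3, and was 1 with upper-quartile factors or no hairpin term and 5 with no filter. Leaving out each library in turn, with no hairpin term (chosen after seeing the data, since the hairpin term leaves no residual degrees of freedom), gave 15 to 18 higher and 0 to 5 lower, with 0 lower without shCTR A, 1 without shMettl14 A and 5 without shMettl14 B. Hoxa3 and Hoxb3 lost their calls in 5 of 10 alternatives each, with adjusted p-values (edgeR) of up to 0.344 without shCTR A for Hoxa3 and 0.668 without shCTR B for Hoxb3. Hoxa4 and Hoxd4 lost theirs without shCTR A (adjusted p = 0.0983 and 0.0894, edgeR), Hoxb5 and Hoxc5 without shMettl14 A (0.136 and 0.0574), Hoxd3 without either of these (0.0709 and 0.0611), and Hoxc9 with DESeq2 (0.103). Hoxb2 was called lower with DESeq2 (adjusted p = 0.0423), and Hoxb4 with at least 10 counts in every library (0.0423, edgeR), and both without any filter (0.00108 and 0.0088, edgeR) and without shMettl14 B (0.000193 and 0.0053, edgeR). Hoxa11 was called higher with no filter (0.0149, edgeR). The median log2 difference of the HOX genes tested, 2.62, was 1.95 with at least 10 counts in every library and 2.14 with DESeq2, which fit other sets of genes. Hoxa5, not called, ranged from -0.22 to 0.044 and changed sign without shCTR A. Between the hairpins the median log2 difference was 0.13 and ranged from -1.98 to 1.75 when a library was left out, since each hairpin then had unequal numbers of letters, and Hoxb4 ranged from -0.068 (without shCTR B) to 0.81 (without shCTR A). The weighted mean paralog number of letter B minus that of letter A, 2.07, was 2.13 with the longest transcript as gene length, 2.07 with CPM of the library total, and 2.02 to 2.13 when a library was left out. With 1 library left in an arm, that library is assumed to vary like the others.

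The libraries share a letter and nothing states a shared culture. The deviations from the hairpin means of libraries with the same letter correlated at 0.578 over 18916 genes and at 0.949 over the 29 HOX genes tested. With a replicate block, 0 HOX genes were called between the hairpins, the median log2 difference was 0.07, and the lowest adjusted p of a HOX gene was 0.376 (Hoxb3). The block called 9 genes of all, and Mettl14 was among those past the threshold (adjusted p = 0.00393, edgeR). Unadjusted p-values under 0.05 were those of Hoxb3 and Hoxb8, against 4.72% of all genes as higher and 5.55% as lower. Of the related genes listed, 0 were called with the block. Among those with an unadjusted p under 0.05 were Jarid2, Suz12, Crabp2, Aldh1a3, Dpy30, Cyp26b1, Meis2 and Rarb, against the same 4.72% and 5.55% of all genes. The lists that hold them had 9 (TALE), 27 (Polycomb), 11 (trithorax and H3K27 demethylase) and 16 (retinoic acid) tested genes. Depth limits the members with under 10 counts in a letter.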
